A study of Homo sapiens with 6 samples.

Results

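Early and late estradiol (E2) exposure were compared in T47D cells by asking where the compartment scores of the late libraries (16 and 24 h, T16 and T24) both lay above, or both below, those of the early libraries (1 and 4 h, T1 and T4). The members are 100 Kb bins of the 22 autosomes, and 10756 of 26484 bins scored in each of the 6 libraries met this rule, 40.6%. In 5091 bins (19.2%) both late scores were above both early scores, here called higher late, and in 5665 bins (21.4%) both were below, called lower late. The rule uses the scores themselves, so the early to late differences of these bins describe how they were chosen and carry no test. The bins higher late lay more often near chromosome ends, on chromosome 19 and over zinc finger genes. The longest run of bins lower late covered KLF6 and AKR1C genes, and ESR1, FOXA1 and KLF4 also lay in bins lower late. By score the luminal factors as a list were lower late about as often as all genes. By percentile rank within each library they were so more often, 44.4% beside 22.9%.

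The nucleus keeps active, gene-rich chromatin (compartment A) largely apart from inactive chromatin (compartment B), and a region's compartment is read from which other regions it contacts. E2 acts through the estrogen receptor, a transcription factor encoded by ESR1 that binds estrogen response elements with the help of FOXA1, and it drives luminal breast cancer cells from G1 into S phase. Compartments are coarse and mostly stable features of a cell type, so that short treatments are usually seen as small shifts of the score rather than as exchanges of A and B.

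T47D is a long-established line of luminal breast cancer cells that carry the estrogen receptor. In T0 all 15 luminal and epithelial marker genes listed here lay in A, or 100%, as did 92.6% of 27 luminal and receptor factors, beside 78.5% of all protein-coding genes; expression was not measured in these files. Parental cells were starved of hormone for 72 h and collected untreated (T0) or 1, 4, 16 or 24 h after addition of 100 nM E2, and tamoxifen-resistant T47D cells (TamR), labelled as untreated and kept with tamoxifen according to the methods, were the sixth condition. Contacts were measured by tethered chromatin capture (TCC), a form of Hi-C cut with HindIII, and the deposited score is the first eigenvector of the contacts between chromosomes, positive in A and negative in B. Each condition has 1 library. T1 and T4, and T16 and T24, are different times and not replicates, so the time of exposure and the library cannot be told apart, and no p-value is given. Scores are printed multiplied by 1000; the squares of the deposited scores sum to 0.998 to 0.999 in each library, so that scores are comparable within a library and only with that limit between libraries. The depth is unknown from these files.

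To show what sequence the regions hold, palindromic estrogen response elements (GGTCA, any 3 bases, TGACC, a motif that covers both strands at once) were located in hg19 inside the runs of adjacent members described further on. Of these 6 are printed as examples, on the plus strand with 15 bases on either side and the element in capitals. The first 3 lie in runs higher late: in the coding exon of the potassium channel gene KCNA5, between genes, and in an intron of AGBL1. The last 3 lie in runs lower late: the first and second between genes, and the third in an intron of TMEM260. An element between genes is labelled near the gene with the nearest start. That start is 158 Kb away for the neurotrophin gene NTF3, 261 Kb for AKR1E2 and 138 Kb for KLF4.
KCNA5, chr12:5154723-5154765: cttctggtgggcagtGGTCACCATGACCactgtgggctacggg
near NTF3, chr12:5383509-5383551: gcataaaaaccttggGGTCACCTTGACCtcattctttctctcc
AGBL1, chr15:87407399-87407441: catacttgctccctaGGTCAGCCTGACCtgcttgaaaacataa
near AKR1E2, chr10:4567527-4567569: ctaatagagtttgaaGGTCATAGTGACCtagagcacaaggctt
near KLF4, chr9:110391049-110391091: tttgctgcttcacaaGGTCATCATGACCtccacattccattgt
TMEM260, chr14:56978451-56978493: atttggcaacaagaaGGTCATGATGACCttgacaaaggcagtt

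Such elements were no more frequent in the members than elsewhere. At least 1 was present in 7.11% of bins higher late, 7.06% of bins lower late and 7.39% of bins not kept, beside 7.26% of all bins. Their density was 0.748 per Mb in bins higher late, 0.737 in bins lower late and 0.792 in bins not kept. A match is a stretch of letters and no measured binding site.

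The differences that define the members were small beside the range of the scores. The median late minus early difference was 0.595 in bins higher late (quartiles 0.412 and 0.861, largest 3.25) and -0.584 in bins lower late (quartiles -0.779 and -0.409), while the median size of a T0 score was 4.93. At the edge of the rule, 621 bins higher late and 766 bins lower late were separated by a gap under 0.05. With 2 libraries on each side, lying on one side is a mild requirement. A gap wider than the range within either side was found in 1433 bins higher late (5.41%) and 1468 bins lower late (5.54%). When each library was turned into percentile ranks, 3761 of the bins higher late (73.9%) and 4342 of the bins lower late (76.6%) kept their call and 0 took the opposite one. The 4 scores stood in the order of time in 1569 bins higher late (30.8%) and 1790 bins lower late (31.6%).

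The late libraries differed from each other more than T16 differed from the early ones. The median absolute difference between T16 and T24 was 0.501, beside 0.351 between T1 and T16, 0.334 between T4 and T16 and 0.321 between T1 and T4. T24 lay 0.523 from T1 and 0.605 from T4. Its score distribution also had the largest skewness of the 5 parental libraries, 0.703 against 0.440 to 0.525, and 44.8% of its bins were in A against 46.9% to 47.7%. A late minus early difference therefore leans on T24, and values with T24 left out are given for the locations, the gene families and the runs whose difference they change by over 1.5 times.

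The members were unevenly spread over the range of compartment scores in T0, a library the rule did not use. In the most B decile of T0, 34.1% of bins were higher late and 2.15% lower late. In the most A decile, 29.6% were higher late and 6.91% lower late. Near the border, in the sixth decile, the balance was turned, with 10.8% higher and 34.9% lower late. By percentile rank the deciles ranged from 17.1% to 20.6% higher late and from 15.4% to 24.7% lower late, so most of this curve was not seen by rank. The median difference from the early mean in the most B, the sixth and the most A decile was 0.651, -0.545 and 0.579 in T24, beside 0.025, -0.076 and 0.032 in T16.

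**Figure D1:**
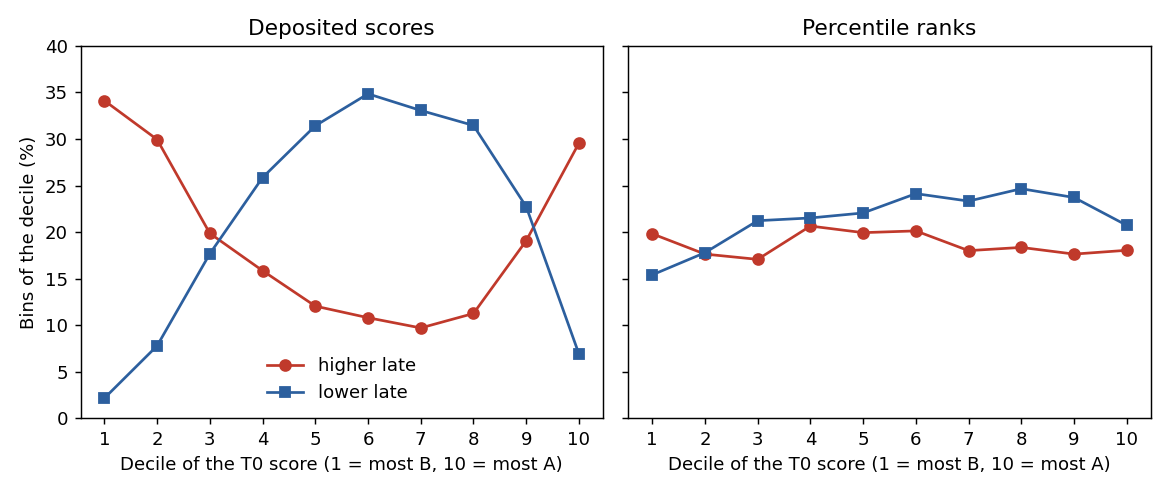
Share of bins higher late (red circles) and lower late (blue squares) in each decile of the T0 score, in percent, from the deposited scores (left) and from percentile ranks within each library (right). From the scores the share higher late is 34.1% in the most B decile and 10.8% in the sixth. By rank it ranges from 17.1% to 20.6%, and the share lower late from 15.4% to 24.7%.

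Bins near chromosome ends were higher late more often than bins in general. Of the 734 bins within 2 Mb of a chromosome end, 319 were higher late (43.5%) and 44 lower late (5.99%), and more bins were higher than lower late on 20 of the 22 chromosomes. The median score of these bins was 7.63 in T1, 7.60 in T4, 8.001 in T16 and 8.43 in T24, beside 7.64 in T0 and 8.45 in TamR. The late medians lie above the early ones, and T0 lies with the early libraries. These bins are rich in GC, with a median of 48.9% against 39.9% over all bins, but after a straight line in GC was taken out of each library the shares were 39.2% higher and 7.77% lower late. By percentile rank they were 38.4% and 8.04%, and with T24 left out T16 lay above both early libraries in 50.0% and below both in 22.9%, beside 33.6% and 35.6% over all bins. The ends were not all active: of bins there that were in B in T0, 38.5% were higher and 5.13% lower late.

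Around the largest assembly gap of each chromosome, which marks the centromere on most, the same direction rested on T24. Within 2 Mb of the gap 193 of 655 bins were higher late (29.5%) and 38 lower late (5.80%), with shares of 32.8% and 3.82% by rank. The median score was -4.19 in T1, -4.46 in T4, -4.17 in T16 and -3.17 in T24, with T0 at -4.49 and TamR at -3.39. T24 stands apart here and T16 does not. With T24 left out, T16 was above both early libraries in 35.6% of these bins and below both in 34.4%.

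Among the chromosomes, chromosome 19 held the largest share higher late. Of its 557 bins 216 were higher late (38.8%) and 25 lower late (4.49%), with 32.5% and 13.8% by rank, 36.6% and 7.54% after removal of the GC trend, and 44.5% and 22.4% for T16 alone. Its median score was 9.22 in T1, 9.02 in T4, 9.55 in T16 and 9.86 in T24, while T0 was at 8.94 and TamR at 10.6. Chromosome 16 followed with 28.2% higher and 13.1% lower late, but with T24 left out the order turned to 31.7% higher and 36.2% lower. The reverse was seen on chromosome 13 with 11.8% higher and 24.8% lower late, and on chromosome 6 with 14.4% and 27.5%. For T16 alone these were 30.8% and 38.2%, and 30.3% and 38.7%, near the 33.6% and 35.6% of all bins. The chromosome ends had like shares with chromosome 19 left out: 43.4% of bins within 2 Mb of an end were higher and 6.32% lower late.

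**Figure D2:**
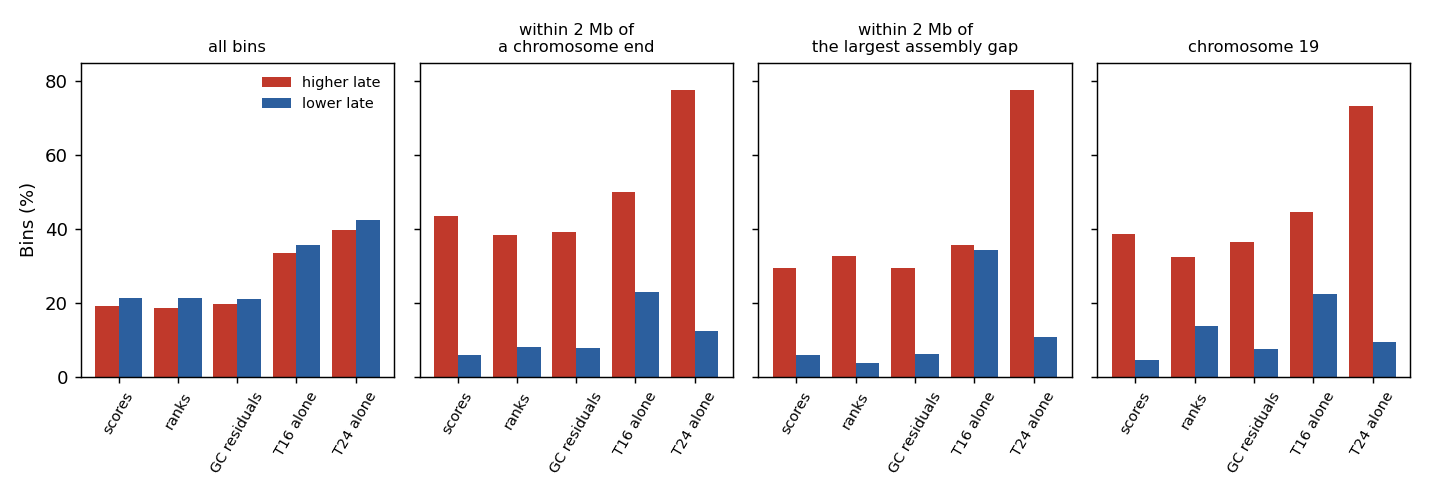
Share of bins higher late (red) and lower late (blue), in percent, over all bins, within 2 Mb of a chromosome end, within 2 Mb of the largest assembly gap and on chromosome 19, from scores, percentile ranks and GC residuals, and with T16 or T24 as the only late library. At chromosome ends and on chromosome 19 the red bar is taller under every setting, and near the gap the bars are 35.6% and 34.4% for T16 alone.

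Gene density was related to the members in a way that changed with the scale. Bins with 1 or 2 protein-coding gene starts were lower late in 26.6% and higher late in 15.5%, beside 23.9% and 17.3% by rank. Bins with 5 or more gene starts were higher late in 29.1% and lower late in 7.54%, but by rank the order was 18.1% higher and 20.5% lower, and for T16 alone 34.8% higher and 32.7% lower. Across the 26484 bins the late minus early difference had r = 0.180 with GC content, a description over neighbouring bins that share their libraries, and r = 0.073 when T16 alone was set against the early mean. The correlation with the number of HindIII sites per bin was -0.110.

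Most members were short. The bins higher late formed 3013 runs of adjacent bins, of which 1983 were 1 bin, 120 had at least 5 bins and 20 at least 10. The bins lower late formed 3201 runs, of which 2028 were 1 bin, 184 had at least 5 bins and 11 at least 10. Of the 20 long runs higher late, 4 were on chromosome 19 and 3 on chromosome 7.

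The longest run higher late covered 2.8 Mb at chr12:5000001-7800000, 28 bins with 55 protein-coding genes. Its mean score was 7.27 in T1, 7.69 in T4, 8.49 in T16 and 8.67 in T24, a mean difference of 1.10 with an SD over bins of 0.356. Both late libraries lie close together above the early ones, T0 lies below all of them at 6.68, and TamR is at 6.97. It opens with KCNA1 and KCNA5, which encode voltage-gated potassium channels, and NTF3, followed by ANO2 and VWF, the von Willebrand factor gene. In the bin of VWF the scores were 9.40, 10.2, 10.4 and 11.1 from T1 to T24. The run joins a moderately positive stretch to a strongly A one, and both parts shifted in score (the profile of the run shows this). By percentile rank, bins of the strongly A part such as those of GAPDH and ENO2 were not kept, with differences of 0.468 and 0.417. Others were kept, such as that of CD9 at 2.80, and that of KCNA1 in the weaker part was at 6.77. The gap was wider than the range within either side in 9 of the 28 bins.

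**Figure D3:**
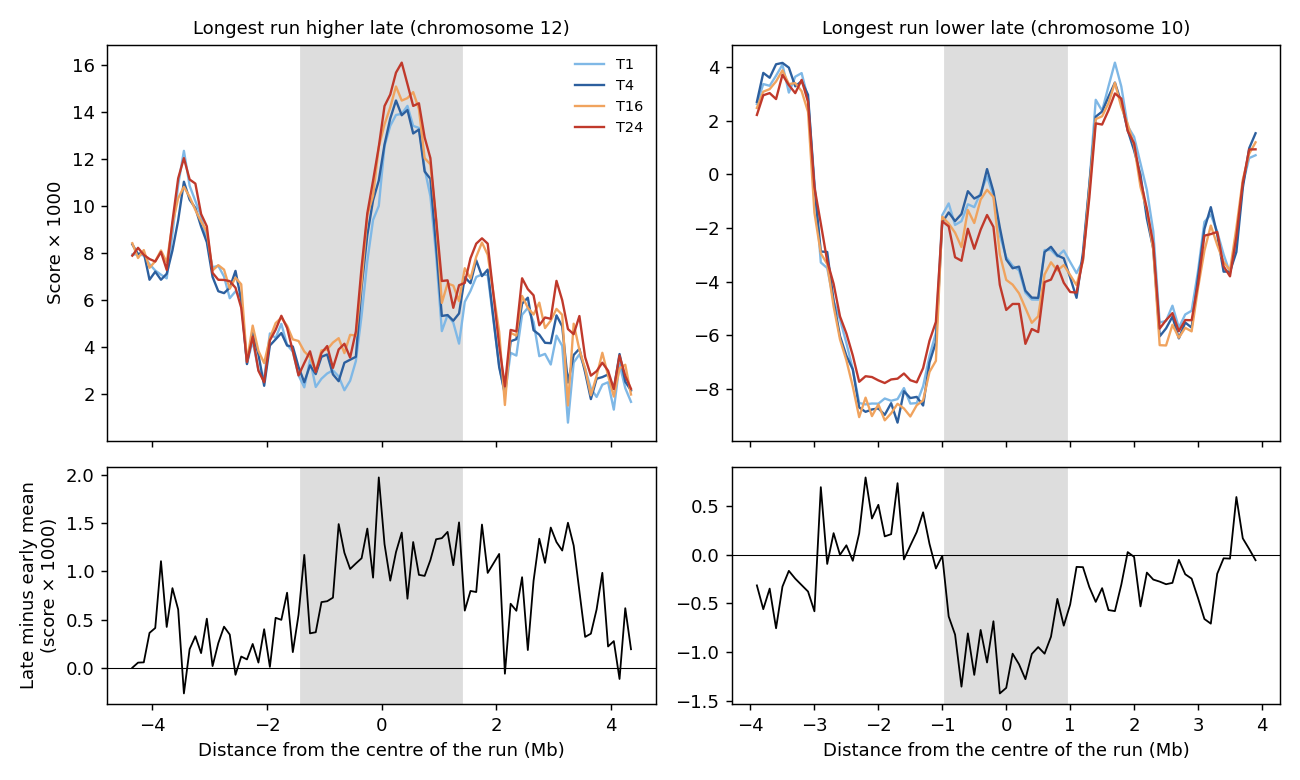
Scores (multiplied by 1000) of the 4 E2 libraries by distance in Mb from the centre of the longest run higher late (left, chromosome 12) and lower late (right, chromosome 10), with the late minus early mean below; grey marks the run. The mean difference inside is 1.10 on the left and -0.979 on the right.

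The second run higher late lay in B chromatin, at chr15:86300001-88900000, with only KLHL25, AGBL1 and the neurotrophin receptor gene NTRK3 inside. Its mean score was -2.75 in T1, -2.58 in T4, -1.69 in T16 and -0.699 in T24. The late libraries were less negative than T0, at -3.26, and far from TamR, at -5.76. The difference was 1.47 over 26 bins, and 0.974 with T24 left out. This run and the first share the sign of the difference and means that rise in order from T0 to T24. They are otherwise unlike, since the first is in A and gene-dense and this one in B with 3 genes.

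The next 3 longest runs higher late lay towards chromosome ends. At chr20:58600001-60900000, with the cadherin gene CDH4 and TAF4, a subunit of the basal transcription factor TFIID, the mean score was -1.55 in T1, -1.86 in T4, -1.05 in T16 and -0.607 in T24. At chr7:157000001-159100000, with the chaperone gene DNAJB6, PTPRN2 and the condensin II gene NCAPG2, it was 1.83, 2.28, 3.14 and 3.63 in the same order. At chr5:177700001-179700000, with the splicing kinase gene CLK4, ZNF354A and ZNF354B, it was 8.92, 9.03, 9.91 and 10.7. TamR was near or above T24 in these 3 runs, at -0.519, 3.38 and 10.8.

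The runs with the largest differences were all on chromosome 19 and held zinc finger genes. At chr19:9400001-9700000, with ZNF699, ZNF559, ZNF177 and ZNF266, the mean score was 0.326 in T1, 0.198 in T4, 1.62 in T16 and 3.09 in T24. The late scores stand clear of the early pair, T0 is at -0.507, and TamR is at 10.9. At chr19:8400001-9300000, which opens with ANGPTL4, an inhibitor of lipoprotein lipase, and the small GTPase gene RAB11B, the means were 2.46, 2.07, 3.57 and 5.11, with T0 at 1.59 and TamR at 9.19. At chr19:23000001-24000000, with ZNF723, ZNF728, ZNF730 and ZNF724, they were -2.41, -2.90, -1.63 and 0.367, with T0 at -2.61 and TamR at 1.82. The mean differences of the 3 runs were 2.09, 2.07 and 2.02, and 1.36, 1.31 and 1.02 with T24 left out.

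The longest run lower late covered 1.9 Mb at chr10:3200001-5100000. It held KLF6, a zinc finger transcription factor and immediate early gene, and AKR1E2, AKR1C1 and AKR1C2; the AKR1C enzymes reduce steroid hormones. The mean score was -2.43 in T1, -2.35 in T4, -3.02 in T16 and -3.72 in T24, a difference of -0.979 (SD over 19 bins 0.273) and of -0.629 with T24 left out. The early pair nearly coincide, the late libraries lie below them, T0 is at -2.82 and TamR, at 2.085, is in A. In the bin of KLF6 the scores were -0.0771 in T1 and 0.198 in T4 but -0.575 in T16 and -1.51 in T24. In the bin where AKR1C1 and AKR1C2 start they were -2.84, -3.13, -3.38 and -4.04.

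The other long runs lower late lay in A or near the border. At chr11:78000001-79400000, with NARS2 and TENM4, a gene of neuronal adhesion, the mean score was 1.69 in T1, 1.39 in T4, 1.12 in T16 and 0.544 in T24. At chr15:62100001-63400000, with VPS13C, TLN2 and the tropomyosin gene TPM1, it was 6.91, 6.36, 6.001 and 5.64. At chr12:27300001-28500000, with STK38L and BMAL2, a partner of the circadian factor CLOCK, the early means of -1.38 and -1.37 were followed by -1.78 and -2.22. At chr14:59700001-60800000, with GPR135 and RTN1, the early means were 0.191 and 0.115, T16 was at -0.198, and T24 at -1.315. In the last of these most of the difference came from T24: it was -0.909 in all and -0.351 with T24 left out. In the runs on chromosomes 11 and 12 it was -0.708 and -0.623, and -0.418 and -0.404 with T24 left out.

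KLF4 lay alone in the run at chr9:110200001-111000000, one of the 3 with the largest differences lower late. KLF4 is a zinc finger transcription factor of epithelial differentiation and pluripotency. The mean score of its 8 bins was 1.57 in T1, 2.01 in T4, 1.03 in T16 and -0.096 in T24, a difference of -1.33 (SD 0.162). T0, at 0.695, lay below the early pair and TamR, at 6.49, far above every parental library. With T24 left out the difference was -0.766. The other runs of this kind were chr7:143400001-143900000, with TCAF1 and the olfactory receptor genes OR2F2, OR2F1 and OR6B1, at -0.762, -0.544, -1.77 and -2.25, and chr14:56600001-57200000, with TMEM260, at 1.55, 1.72, 1.002 and -0.390. The difference of the TMEM260 run was -1.33, and -0.630 with T24 left out.

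**Figure D4:**
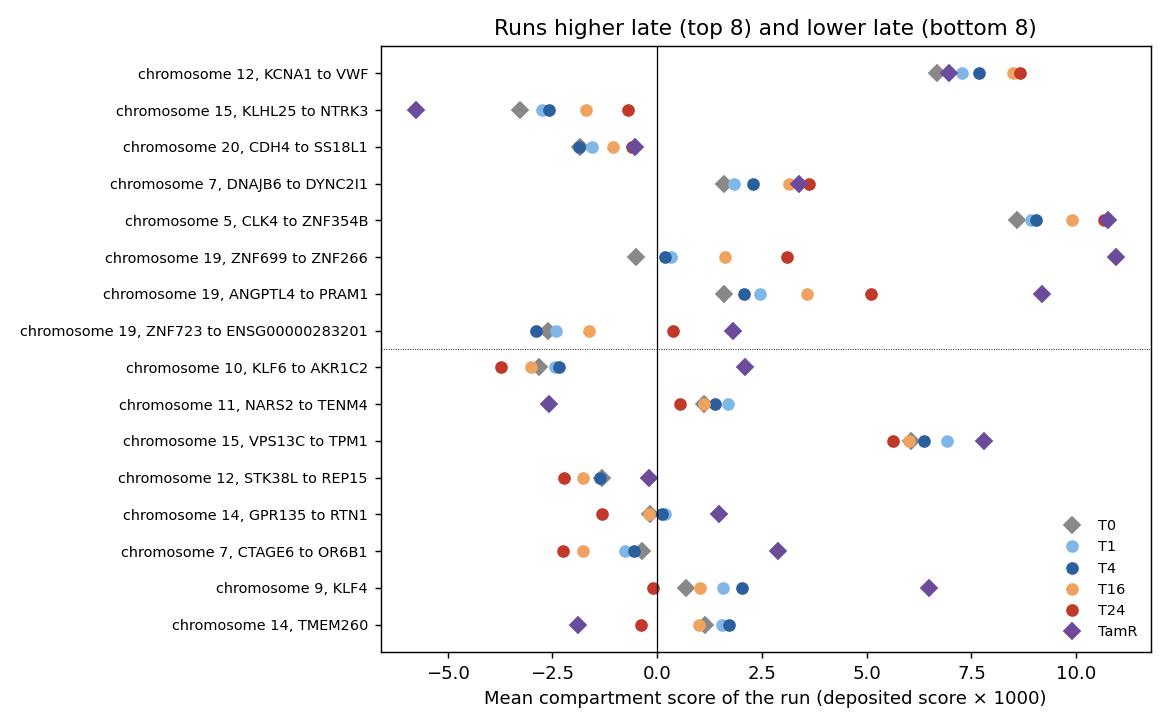
Mean score (multiplied by 1000) of the 5 longest runs and the 3 runs with the largest mean difference in each direction, with the first and last of the genes named; circles are the E2 libraries and diamonds T0 and TamR, which the rule did not use. TamR lies at 10.9 in the ZNF699 to ZNF266 run and at 6.49 in the KLF4 run, beyond all parental libraries.

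An exchange of compartment between early and late E2 was rare. Both early libraries were in B and both late in A in 51 bins (0.193%), and the reverse held in 151 bins (0.570%). These bins lay close to the border, with a median size of the early mean of 0.403 and 0.340. T0 had the early compartment in 46 of the 51 and 106 of the 151, and TamR the late one in 29 and 82. When bins with a weak score in any E2 library were left out, 0 of either kind remained, and when the border was set at each library's median the counts were 111 and 95.

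Of the runs that changed from B to A, the longest was chr19:8800001-9100000. It held ACTL9, OR2Z1, ZNF558 and MBD3L1, and its mean score was -0.411 in T1, -1.17 in T4, 1.13 in T16 and 2.81 in T24. Next came chr19:9400001-9600000, with ZNF699, ZNF559 and ZNF266, at -0.517, -0.386, 1.17 and 2.69, and chr7:157900001-158100000 inside PTPRN2, at -1.46, -0.679, 0.764 and 0.960. These 3 lie within the runs higher late described before, and TamR was in A in all of them, at 7.97, 11.04 and 1.21. The other runs of this kind were in CCDC60 on chromosome 12 and in a stretch of chromosome 4 without protein-coding genes.

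The longest runs that changed from A to B were smaller in score. At chr6:106200001-106500000, which overlaps annotated transcripts of PRDM1, the gene of the repressor BLIMP1, and of the autophagy gene ATG5, the mean score was 0.203 in T1, 0.468 in T4, -0.491 in T16 and -0.681 in T24. T0 was in B there, at -0.460, and TamR in A, at 2.64. At chr1:78000001-78300000, with ZZZ3 and the deubiquitinase gene USP33, it was 0.235, 0.148, -0.166 and -0.830, a difference of -0.689 that was -0.357 with T24 left out. At chr12:66700001-66900000, over HELB and GRIP1, it was 0.379, 0.487, -0.285 and -0.783. The remaining runs lay in DENND1B, where the difference was -1.22 and -0.688 with T24 left out, and in MAPRE2.

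Protein-coding genes were in bins of either direction at like shares by score, and more often lower late on other scales. Of 18862 genes placed by their start, 3857 (20.4%) lay in bins higher late and 3868 (20.5%) in bins lower late. By percentile rank the shares were 17.4% higher and 22.9% lower, after removal of the GC trend 18.3% and 22.9%, and for T16 alone 31.6% and 36.99%. Each family below is read against the shares on its own scale. Genes that share a bin share its score, so the number of bins is given where it is much smaller.

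Zinc finger genes named ZNF, most of which encode repressors of transcription, lay more often in bins higher late. Of 491 such genes 225 (45.8%) were in bins higher late and 29 (5.91%) in bins lower late, or 142 and 27 of 336 bins. By percentile rank the counts were 226 and 40, after removal of the GC trend 216 and 30, and with T24 left out 277 (56.4%) and 90 (18.3%). On chromosome 19 the counts were 138 (56.1%) and 5 of 246 genes, and outside it 87 and 24 of 245, so the imbalance was seen in both parts. Of all 1479 protein-coding genes of chromosome 19, 587 (39.7%) were higher late and 29 lower late. Much of the imbalance on that chromosome was therefore shared with its genes in general. The median score over the bins of the zinc finger genes was 4.42 in T1, 4.59 in T4, 4.99 in T16 and 4.92 in T24, while T0 was at 4.63. TamR was at 7.34, and its score was above the early mean in 68.8% of the bins, beside 45.7% of all bins.

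The median late minus early difference of the zinc finger list was 0.487 over genes and 0.429 over bins. The single bins named next were picked for a large difference and a gap wider than the range within either side. In the bin of ZNF681 the scores were -0.940 in T1, -1.19 in T4, 0.651 in T16 and 1.92 in T24. In that of ZNF266 they were -0.304, -0.254, 1.32 and 2.29. In that of ZNF700 and ZNF763 they were 7.70, 7.65, 9.23 and 9.56. In these bins the gap between the early and late scores was 1.54 to 1.59. ZNF397 and ZNF510 were examples of the other direction, with differences of -1.19 and -0.746.

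Factors of the luminal and estrogen receptor programme were found in bins lower late and in 0 bins higher late. Of 27 genes 6 were lower late, 22.2%, a share near the 20.5% of all genes, while 20.4% of all genes were higher late. By percentile rank 12 were lower (44.4%) and 1 higher late (3.70%), beside 22.9% and 17.4% of all genes. With T24 left out 10 were lower (37.04%), close to the share of all genes, and 3 higher (11.1%). The median score of their bins was 4.85 in T1, 5.35 in T4, 4.86 in T16 and 4.62 in T24, and 6.46 in T0. In the bin of ESR1 at chr6:151900001-152000000 the scores were 4.03 in T1, 3.94 in T4, 3.68 in T16 and 3.26 in T24, with T0 at 4.90 and TamR at -0.051. In the bin of FOXA1, the pioneer factor of the estrogen receptor, at chr14:38000001-38100000, they were 1.37, 1.47, 0.882 and 0.691, with T0 at 2.40 and TamR at 0.233. In both bins T0 was highest and T24 lowest of the parental libraries, while T1 and T4 stood in opposite order. In FOXA1 the gap of 0.487 was wider than the range within either side. The other members, named after their values were seen, were KLF4, the epithelial factors ELF3 and ELF5, and the corepressor gene NCOR1. GATA3, a luminal lineage factor, was not kept, with scores of 0.711, 1.53, 1.19 and 0.932. Of 15 luminal and epithelial marker genes 3 were lower late and 0 higher late.

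Classical estrogen target genes had no common direction. Of 36 genes 7 were in bins higher late and 8 in bins lower late, 6 and 6 by rank, and 9 and 14 for T16 alone. GREB1, TFF1, MYC, CCND1 and XBP1 were not kept. The early and late scores of GREB1, a coactivator of the receptor, overlapped, with 5.02 in T1, 5.54 in T4, 5.36 in T16 and 4.56 in T24. Those of CCND1, the cyclin of G1, were 12.1, 11.1, 10.97 and 12.2, the outer times being the highest. PGR, the progesterone receptor gene, was lower late by a narrow gap of 0.029, with 1.27, 1.02, 0.993 and 0.796, while T0 was at 0.171 and TamR at -6.92. RAPGEFL1 was higher late with 11.7, 12.01, 13.3 and 13.2, and SIAH2, a ubiquitin ligase gene, lower late with 5.39, 5.50, 5.01 and 4.86.

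Immediate early genes, the first to be transcribed after a stimulus, were in bins lower late in 5 of 21 cases and higher late in 2, and for T16 alone in 8 and 4. The share lower late, 23.8%, was close to the 20.5% of all genes, as was that for T16 alone, 38.1% beside 36.99%. The share higher late, 9.52%, was under the 20.4% of all genes. The genes named next are single examples. NR4A2, an orphan nuclear receptor gene, had -1.10 in T1, -0.783 in T4, -2.02 in T16 and -2.59 in T24. BTG2, an antiproliferative gene, had 9.57, 9.60, 8.65 and 8.66, the early pair and the late pair each lying close together. CCN2, a matricellular growth factor gene, had -1.63, -1.68, -2.44 and -2.60, so that a strong A bin and weak B bins shared the direction. KLF6 and CCN1 completed the 5, the latter named after its values were seen.

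Genes of the G1/S transition and DNA replication were in bins higher late in 15 of 39 cases (38.5%) and lower late in 8 (20.5%). By rank the counts were 10 and 6, after removal of the GC trend 11 and 10, and with T24 left out 16 and 14, so the excess was not stable. E2F1, a transcription factor of S-phase genes, had 10.9 in T1, 10.9 in T4, 12.1 in T16 and 12.5 in T24. MCM4, a subunit of the replicative helicase, had 3.60, 3.91, 4.49 and 4.84, and CDK2, the S-phase kinase, 8.99, 9.16, 9.65 and 9.54. CDK6, a G1 kinase, went the other way with -1.03, -0.617, -1.71 and -1.61. Of 27 mitosis genes 4 were higher and 3 lower late.

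Ribosome biogenesis genes were in bins higher late in 6 of 21 cases (28.6%) and lower late in 3, but 3 and 5 by rank and 10 and 8 for T16 alone. NOP56, a core protein of small nucleolar RNPs, had 9.52 in T1, 10.01 in T4, 11.2 in T16 and 10.8 in T24. Among 22 genes of chromatin architecture 5 were higher and 3 lower late: the lamin gene LMNB1 had 3.26, 3.04, 4.03 and 4.09, and the cohesin gene SMC3 had 2.27, 2.29, 1.63 and 1.25. The nuclear receptor genes were lower late in 6 of 31 cases and higher late in 3, the growth factor receptor and PI3K pathway genes in 4 and 2 of 27. The shares of the nuclear receptor and the growth factor and PI3K lists are close to, or under, those of all genes.

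Gene families in clusters gave large counts from few bins. Keratin genes were higher late in 60 of 149 cases and lower late in 0, from 11 of 34 bins, and the counts were 33 and 9 by rank and 68 and 41 with T24 left out. In the bin of KRT80 the scores were 9.18 in T1, 9.05 in T4, 10.1 in T16 and 10.4 in T24. Histone genes were higher late in 20 of 71 cases and lower late in 0, from 5 of 16 bins, yet with T24 left out 20 were higher and 31 lower. Olfactory receptor genes were higher late in 101 of 387 cases and lower late in 20, from 48 and 12 of 166 bins, with 82 and 62 by rank, and with T24 left out the order turned to 111 higher and 160 lower. Protocadherin genes, which encode neuronal adhesion molecules, were lower late in 19 of 63 cases and higher late in 2, with 30 and 3 by rank and 21 and 3 for T16 alone. They came from 5 and 2 of 18 bins, and the median difference was -0.38 over genes but -0.08 over bins. Several of these share a bin: in that of PCDHB4 to PCDHB8 on chromosome 5 the scores were 5.68, 5.88, 5.11 and 5.01. HOX genes were lower late in 14 of 39 cases and higher late in 0, from 2 of 9 bins, with 7 and 3 by rank and 15 and 3 for T16 alone.

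**Figure D5:**
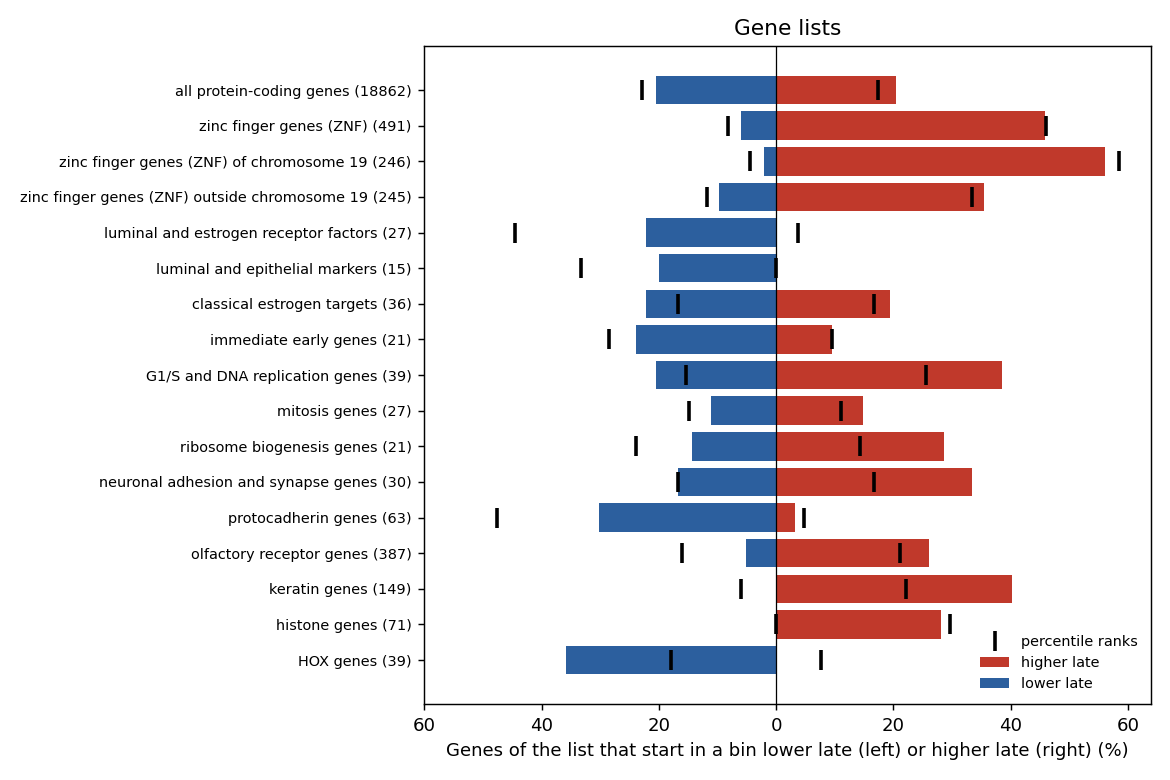
Share of the genes of each list, in percent, that start in a bin higher late (red, right) or lower late (blue, left), with black ticks for percentile ranks; the number of genes with a score is in brackets. Zinc finger genes reach 45.8% higher late, and the luminal and estrogen receptor factors have no bar on the right.

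Markers of cells other than luminal epithelium were checked as a list. Of 17 basal and mesenchymal markers 4 were higher (23.5%) and 6 lower late (35.3%). Of 14 fibroblast, endothelial and blood markers 2 were higher (14.3%) and 3 lower late (21.4%). The shares of all genes were 20.4% and 20.5%. Of 30 neuronal adhesion and synapse genes, most of which lie in B, 10 were higher (33.3%) and 5 lower late (16.7%). By rank the counts were 5 and 5, after removal of the GC trend 12 and 3, and for T16 alone 14 and 10. In PTPRD the scores were -7.99 in T1, -7.84 in T4, -7.21 in T16 and -7.49 in T24, so that a strongly B gene was slightly less negative late.

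The untreated and the resistant cells were compared with the members last, since the rule used neither. T0 lay nearer the late than the early mean in 33.3% of bins higher late and 30.6% of bins lower late. In the same order, it lay within the range of the early libraries in 18.8% and 17.1%. It was beyond them on the side away from the late libraries in 35.4% and 42.3%, and past both late libraries in 12.7% and 10.9%. Bins not kept whose late mean was above or below the early mean gave 41.8% and 41.1% nearer the late mean. Their early and late means lie closer by the rule itself, so they are no measure for these shares. In the median bin T0 was 0.077 above the early mean in bins higher late and 0.009 above it in bins lower late. TamR lay nearer the late mean in 45.4% of bins higher late and 54.4% of bins lower late. In bins not kept whose late mean was above or below the early mean it did so in 44.9% and 54.5%, with the same limit.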

How the data were processed

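TCC was carried out on starved, E2-treated (1, 4, 16 and 24 h) and tamoxifen-resistant T47D cells, 1 library each. The authors aligned reads to hg19 with bowtie2, corrected the contact matrix iteratively and took the first eigenvector of contacts between chromosomes with HiCLib; the deposited score is given per 100 Kb bin and is 0 where a bin has none. Depth was not given in the sources used here, nor whether cultures were pooled. Scores were multiplied by 1000, and autosomal bins with a score in all 6 libraries were used. GC content, HindIII sites and response elements were read from GRCh37, whose chromosome lengths match the bins, and gene starts from the GENCODE annotation on it. Runs are adjacent bins of 1 direction. The members and gene lists were chosen with earlier results of these data known. Named were the 5 longest runs, the 3 of at least 3 bins with the largest mean difference and the 5 longest compartment changes in each direction with up to 5 genes inside, up to 5 listed genes per direction whose gap exceeded the range within either side, and 9 fixed genes. The code that calls bins and runs was checked on simulated tracks with little noise and planted shifts larger than most differences seen here. Runs were recovered there among bins with a large difference, a filter not used for the members. That is a check of the code and not of the calls made in these data. Python 3.11.15, numpy 2.4.6 and pandas 2.3.3 were used.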

Additional observations from a re-analysis of the deposited data

How the results depend on the processing

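No paired analysis was possible because no time point has a second library. The shares of bins higher and lower late stayed within 1.5 times their value with SD-scaled scores, percentile ranks, GC residuals, chromosome-centred scores, chromosome X included, scores asked for in the E2 libraries alone and 500 Kb bins. Leaving out a library loosens the rule, and the shares became 32.7% and 35.1% without T1, 29.9% and 32.3% without T4, 39.7% and 42.4% without T16, and 33.6% and 35.6% without T24; a gap over both within-side ranges left 5.41% and 5.54%. Bins from B to A were 0.298% without T1, 0.378% without T4, 0.615% without T16, 0.593% without T24, 0.419% with the median as border and 0 with weak bins left out. Bins from A to B were 1.22% without T1, 2.53% without T16, 0.359% with the median as border and 0 with weak bins left out. On the other scales, 104 values for the mean differences of the 26 named runs kept their sign. Those from SD-scaled scores and percentile ranks are in other units and were checked for sign alone. Of those from GC residuals and chromosome-centred scores, 4 moved by more than the SD over the bins. With 1 library left out 42 values moved by more than that SD, and the rule itself fixes their sign. Chosen after seeing the data, the excess of higher over lower late genes turned to -12.7 percentage points in olfactory receptor genes and -15.5 in histone genes without T24. The repeat content of the bins was not run, since the sequence used carries no repeat mask. The cause of these changes was not tested.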

Other observations

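Chromosome X, which was not among the members, had shares like those of the autosomes. Of its 1414 bins with a score in all 6 libraries 279 (19.7%) were higher late and 255 (18.03%) lower late, with a median late minus early difference of 0.0114. Solute carrier genes, membrane transporters spread over 342 bins, were higher late in 81 of 356 cases and lower late in 65, and 83 and 75 by percentile rank. Among them SLC7A11, a cystine transporter gene, had scores of 1.85 in T1, 2.02 in T4, 1.40 in T16 and 0.964 in T24. HLA genes were higher late in 3 of 19 cases and lower late in 2, but 1 and 5 by rank.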
